A study of Mus musculus with 2 samples.

Results

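Ezr, Shroom3, Shroom2, Pard3, Pfn1 and Pfn2 are the 6 genes of the panel, out of 140, that were chosen by name as genes of the apical cytoskeleton and of cell polarity. The choice was made with earlier results of these data known. Their transcripts were counted in every segmented cell of all 4 imaged regions, with no cell selected on these counts. They were set against 40 blank barcodes that match no transcript and count decoding errors. The cells came from the duodenum and colon of 1 male and 1 female C57Bl6 mouse, labelled as 6 to 10 weeks old (the collection protocol says 6 weeks), with no treatment named and 1 group in all. Sections 10 µm thick of tissue fixed for 3 hours in 4% paraformaldehyde were imaged with MERSCOPE, a method that reads barcoded RNA molecules in place. Each animal contributed 2 regions, and since the labels do not tell which tissue lies in which region, the regions keep their numbers and are not matched between animals.

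An epithelial cell of the gut carries a brush border of actin-filled microvilli at its apical face. Ezrin, the product of Ezr, ties the membrane of the microvilli to their actin cores. Shroom3 and Shroom2 encode actin-binding proteins of apical junctions that promote contraction of the actomyosin belt. Pard3 encodes a scaffold of the partitioning-defective complex that sets up tight junctions and apical-basal polarity. Profilins, encoded by Pfn1 in most cells and by Pfn2 most strongly in neurons, bind actin monomers and feed them to growing filaments. Aqp8 (a water channel) and Slc26a3 (a chloride-bicarbonate exchanger) mark mature absorptive cells of the colonic surface, Cftr (a chloride channel) and Kcnn4 (a potassium channel) are used by crypt cells, Des encodes the muscle filament desmin, and Fn1, Vim and Pdgfra are used by fibroblasts.

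The sequence before the transcription start is shown for the 3 members with the most counts, of which Ezr and Shroom3 were both highest in cells with Aqp8 and Slc26a3, whereas Pfn1 was spread more evenly. All 6 members have at least 1 entry in the RefSeq table of promoters (GRCm38.p6), with 11 entries in total, and the 250 bases before the start are given in the direction of the gene. Capitals mark the GC box GGGCGG on either strand. Ezr lies on the minus strand (chr17:6782781-6783030), Pfn1 on the minus strand (chr11:70654651-70654900) and Shroom3 on the plus strand, with an upstream start (chr5:92809132-92809381) and a downstream start (chr5:92897743-92897992).
Ezr: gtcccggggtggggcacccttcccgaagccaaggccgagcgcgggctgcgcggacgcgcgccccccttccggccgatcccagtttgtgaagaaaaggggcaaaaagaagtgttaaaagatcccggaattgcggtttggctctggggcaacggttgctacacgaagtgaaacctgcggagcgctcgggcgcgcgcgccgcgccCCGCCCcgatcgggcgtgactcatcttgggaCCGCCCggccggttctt
Shroom3 upstream start: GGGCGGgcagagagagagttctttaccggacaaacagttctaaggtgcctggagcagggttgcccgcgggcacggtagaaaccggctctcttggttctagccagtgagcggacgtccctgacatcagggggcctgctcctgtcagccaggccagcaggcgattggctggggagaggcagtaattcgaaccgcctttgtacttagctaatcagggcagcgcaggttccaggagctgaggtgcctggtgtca
Shroom3 downstream start: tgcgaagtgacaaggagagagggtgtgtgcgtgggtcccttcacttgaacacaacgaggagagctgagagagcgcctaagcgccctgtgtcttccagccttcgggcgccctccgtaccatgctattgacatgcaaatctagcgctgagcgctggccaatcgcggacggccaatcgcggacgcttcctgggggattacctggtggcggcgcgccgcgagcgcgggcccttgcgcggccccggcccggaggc
Pfn1: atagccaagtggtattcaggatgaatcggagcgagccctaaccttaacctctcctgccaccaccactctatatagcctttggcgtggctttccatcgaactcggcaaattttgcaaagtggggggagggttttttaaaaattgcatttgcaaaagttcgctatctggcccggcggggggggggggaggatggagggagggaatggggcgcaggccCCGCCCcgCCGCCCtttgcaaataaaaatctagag

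The Ezr and Pfn1 windows each held 2 GC boxes, the upstream Shroom3 window held 1, and the downstream one held 0. A GC box occurs in 32.7% of the 32851 promoter windows of the table. The TATA box TATAAA, present in 12.4% of all windows, and TTTATG, the core read by the intestinal factors of the CDX family and present in 10.8%, were in none of the 4 windows on either strand. G and C made up 67.2% of the Ezr window, 60.4% and 66% of the upstream and downstream Shroom3 windows and 54.4% of the Pfn1 window, against a median of 52.4% over all windows. The transcript counts do not tell the Shroom3 starts apart.

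Depth differed widely between regions, and it limits what can be said of the members. Panel counts came to 3048 in 7775 cells of male region 0, 582 in 4068 cells of male region 1, 4288 in 6343 cells of female region 0 and 45942 in 13707 cells of female region 1. The median cell held 1 panel count in female region 1 and 0 in the others. No cell identifier was shared between regions. Of 9 fixed epithelial markers only Aqp8 and Slc26a3 are on the panel, with 16, 15 and 30 summed counts in male regions 0 and 1 and female region 0 and 7083 in female region 1. Muc6, a mucin of duodenal Brunner glands, had 610 counts in female region 0 and between 0 and 11 in the others. Desmin, the only smooth muscle marker on the panel, had 1533 counts in female region 1, 10 in female region 0, 3 in male region 0 and 0 in male region 1. In sections, fewer cells of a type and less RNA per cell cannot be told apart at the level of a region.

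Ezr, the membrane-to-actin linker, had 4 counts in male region 0, 4 in male region 1, 31 in female region 0 and 3589 in female region 1. Shroom3, the apical constriction gene, had 9, 4, 54 and 2474 counts in the same order. Pfn1, the general profilin, had 6, 5, 54 and 2094. All 3 were thus scarce in both male regions, few in female region 0 and abundant in female region 1. Pard3, the polarity scaffold, had 6, 3, 8 and 206 counts. Shroom2, the paralogue of Shroom3, had 4, 1, 14 and 84. Pfn2, the profilin best known from neurons, went the other way, with 43 counts in male region 0, 4 in male region 1, 4 in female region 0 and 17 in female region 1.

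Against the blanks, 5 of the 6 members (all but Pfn2) exceeded the highest blank of female region 1, which had 46 counts, where 66.4% of all 140 genes did so. In female region 0 the members above the highest blank, at 33 counts, were Shroom3 and Pfn1, 2 of 6 beside 16.4% of all genes; Ezr with 31 counts lay just under it. Male region 0 had a highest blank of 9 counts, which Pfn2 alone exceeded (32.9% of all genes did), and Shroom3 equalled it. In male region 1 the highest blank had 2 counts and 5 members exceeded it with only 3 to 5 counts each (37.9% of all genes did), Shroom2 being the exception. Taking the mean of the blanks plus 3 SD as the limit put 2 members above it in male region 0 (47.1% of all genes), 5 in male region 1 (53.6%), 3 in female region 0 (22.1%) and 5 in female region 1 (65.0%). The male counts of Ezr, Shroom3, Shroom2, Pard3 and Pfn1 are therefore too few to describe where in the male tissue these genes were used.

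As levels, in counts per 10000 panel counts with exact Poisson 95% intervals that cover counting error only, Ezr was at 13.1 (3.58 to 33.6) in male region 0, 68.7 (18.7 to 176) in male region 1, 72.3 (49.1 to 103) in female region 0 and 781 (756 to 807) in female region 1. Shroom3 was at 29.5 (13.5 to 56.1), 68.7 (18.7 to 176), 126 (94.6 to 164) and 539 (517 to 560) in that order. Pfn1 was at 19.7 (7.22 to 42.8), 85.9 (27.9 to 200.5), 126 (94.6 to 164) and 456 (436 to 476). The 6 members together supplied 18.4% of the panel counts of female region 1, against 2.36%, 3.61% and 3.85% in male regions 0 and 1 and female region 0. Counts of different genes also depend on how many probes each gene was given, so levels are compared here between cells and regions and not between genes.

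**Figure D1:**
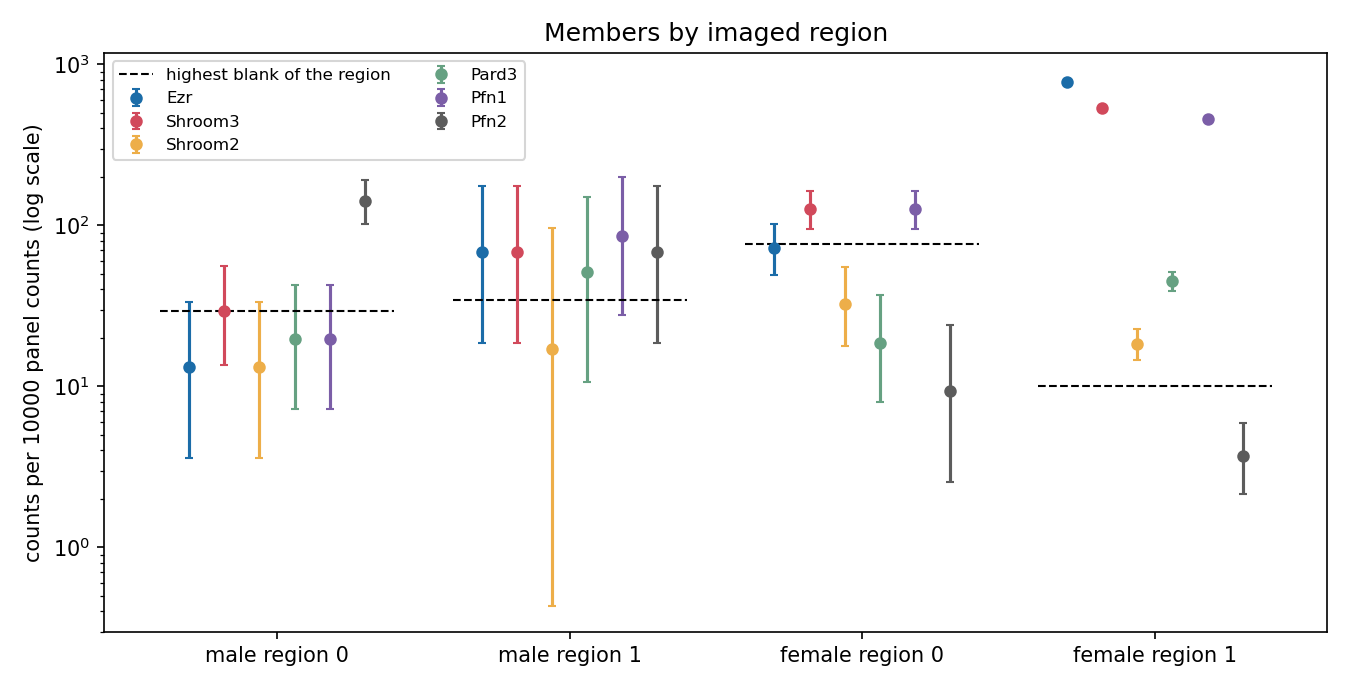
Each point is the summed count of 1 member in 1 imaged region per 10000 panel counts, on a log axis, with its exact Poisson 95% interval; dashed lines mark the highest of the 40 blank barcodes of that region. Ezr, Shroom3 and Pfn1 stand between 456 and 781 in female region 1, while Pfn2 is the only member above the line in male region 0 and the only one below it in female region 1.

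Within the female, the level of Ezr was 10.8 times as high in region 1 as in region 0 (interval 7.60 to 15.9), that of Shroom3 4.28 times (3.27 to 5.71), that of Pfn1 3.62 times (2.76 to 4.83) and that of Pard3 2.40 times (1.20 to 5.64). Shroom2 stood at 0.560 times its level in region 0 (0.316 to 1.07) and Pfn2 at 0.397 times (0.129 to 1.62), both with intervals that include 1. Per cell both turned, Shroom2 to 2.78 times (1.57 to 5.30) and Pfn2 to 1.97 times (0.641 to 8.03). Between the male regions, only Pfn1 had an interval that left out 1 in levels per 10000 panel counts. It was at 0.229 times in region 0 its level in region 1 (0.0583 to 0.949), from 6 and 5 counts. Per cell the Pfn1 interval included 1, at 0.628 times (0.160 to 2.60). That of Pfn2 left it out per cell, at 5.62 times (2.04 to 21.6), from 43 and 4 counts. With the regions of each animal summed, Ezr was at 22.0 per 10000 in the male and 721 in the female, which makes a mean of 371 ± 494 (SD, n = 2 animals), so that the spread between the animals exceeded the mean. Pfn2 was at 129 in the male and 4.18 in the female. With 1 section a side none of these differences has a test, and sex, animal, tissue, section and depth cannot be told apart.

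The next comparison asked in which cells the members were found. Cells were grouped by their summed Aqp8 and Slc26a3 counts, and levels are given per 10000 panel counts with both grouping genes left out of the total. Only female region 1 had enough such cells: 11922 cells held 0, 1135 held 1 to 2 and 650 held 3 or more, with a median of 0, 4 and 12 other panel counts per cell.

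Ezr had 763 counts in the cells with 0, 543 in those with 1 to 2 and 2283 in those with 3 or more, which are levels of 325 (303 to 349), 973 (893 to 1059) and 2322 (2228 to 2420). The level in the cells with 3 or more was 7.14 times that in the cells with 0 (6.57 to 7.76), and that in the middle group was 2.99 times it (2.67 to 3.34). Shroom3 had 809, 370 and 1295 counts and levels of 345 (322 to 370), 663 (597 to 734) and 1317 (1246 to 1391). Its ratio of the upper group to the cells with 0 was 3.82 (3.49 to 4.17). Both genes were ordered in the same way over the 3 groups, and no interval touched the next.

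Pfn1 had 1083, 364 and 647 counts and levels of 462 (435 to 490), 652 (587 to 723) and 658 (608 to 711). Its level was 1.42 times as high in the upper group as in the cells with 0 (1.29 to 1.57), and the middle and upper groups did not differ beyond counting error. Pard3 had 147, 33 and 26 counts and levels of 62.7 (53.0 to 73.7), 59.1 (40.7 to 83.1) and 26.4 (17.3 to 38.8), so that the upper group stood at 0.422 times the cells with 0 (0.267 to 0.643). Shroom2 had 41, 14 and 29 counts, with levels of 17.5, 25.1 and 29.5 and a ratio of 1.69 (1.01 to 2.78). Pfn2 had 12 and 5 counts in the lower groups and 0 of 9831 counts in the upper one, which allows a level of up to 3.05 per 10000, set by 3 counts, where the cells with 0 were at 5.12. The 17 Pfn2 counts of the region lie under its highest blank of 46, so these values do not set the groups apart.

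Read against the whole panel, 16.5% of the 85 genes with at least 50 counts were at least 2-fold higher in the upper group and 50.6% were at least 2-fold lower, with a median ratio of 0.478. For the middle group against the cells with 0, 7.69% of 78 genes were at least 2-fold higher and 15.4% at least 2-fold lower, and of 5 members 1, Ezr, was higher by that fold and 0 lower. Of the 5 members among them, Ezr and Shroom3 were at least 2-fold higher, at ranks 2 and 5 of the 85, and Pard3 was at least 2-fold lower at rank 46; the median of the 5 was 1.69. The Pard3 ratio of 0.422 is close to the median gene, and its value depends on the scale. With the 6 members also left out of the total, Pard3 stood at 0.656 times (0.415 to 1.00), the median gene at 0.744, Ezr at 11.1 times, Shroom3 at 5.94 times, Shroom2 at 2.62 times (1.57 to 4.33) and Pfn1 at 2.22 times (2.01 to 2.45). That change of total raises the ratio of every gene by the same factor. The share of all genes at least 2-fold higher was not computed on that scale, so members past that fold are not counted there. Per cell, without scaling to other counts, Pard3 was higher in the upper group, with 40 counts per 1000 cells against 12.3 (3.24 times, 2.05 to 4.95), where the median gene was 3.68 times higher. Markers of other classes differed between the groups too: the 3 fibroblast markers on the panel summed to 1984 per 10000 in the cells with 0 and 246 in the upper group, desmin to 599 and 19.3, the 3 crypt markers to 351 and 18.3, and the 40 blanks to 113 and 227. Their part in these ratios was not tested.

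**Figure D2:**
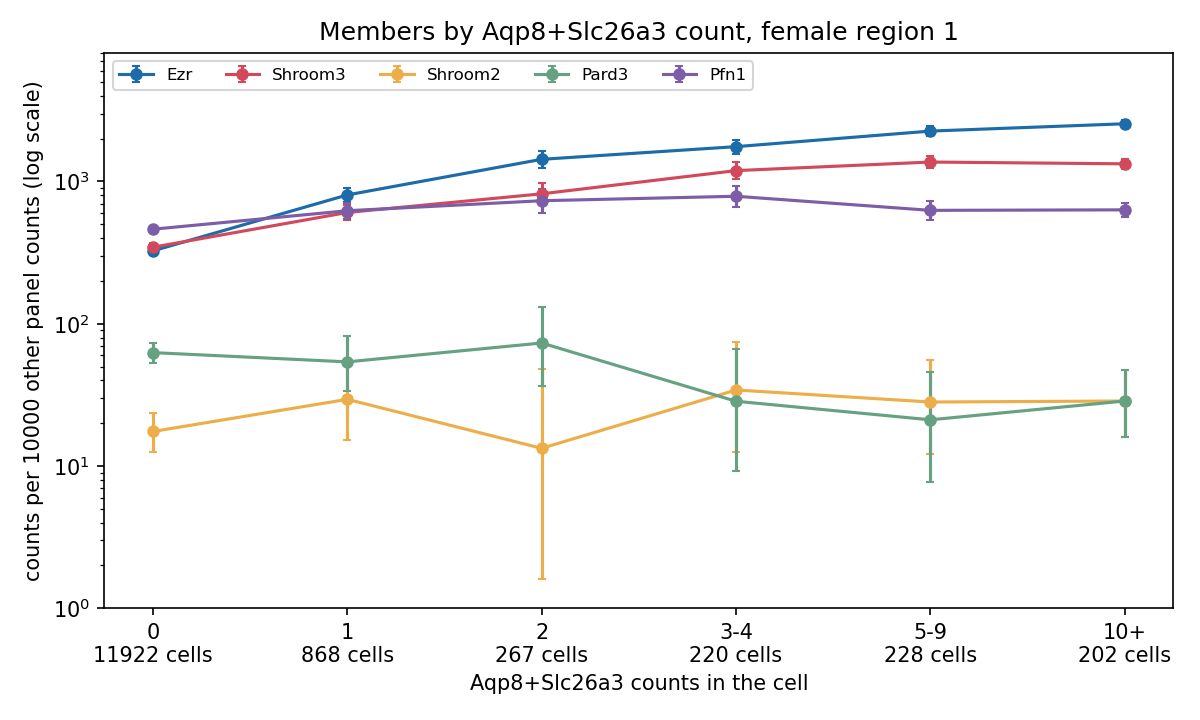
Levels of 5 members in female region 1, in counts per 10000 panel counts other than Aqp8 and Slc26a3 (log axis), against the Aqp8+Slc26a3 count of the cell in 6 bins; bars are exact Poisson 95% intervals. Ezr climbs from 325 to 2545 over the bins and Shroom3 from 345 to 1370 at 5 to 9 counts, while Pfn1 lies between 462 and 787 throughout.

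In finer bins Ezr was at 325, 804, 1431, 1757, 2261 and 2545 in cells with 0, 1, 2, 3 to 4, 5 to 9 and 10 or more Aqp8+Slc26a3 counts. Shroom3 was at 345, 606, 819, 1192, 1370 and 1331, so that its last 3 bins had overlapping intervals. The last 2 bins of Ezr, at 2261 (2089 to 2442) and 2545 (2410 to 2685), overlapped only at their edges. Pfn1 was highest at 787 in the cells with 3 to 4 and stood at 627 and 632 in the last 2 bins. The make-up of the members' counts moved accordingly. Ezr supplied 48.5% of the summed Ezr and Shroom3 counts in cells with 0 (exact binomial interval 46.0 to 51.0), 59.5% (56.2 to 62.7) in the middle group and 63.8% (62.2 to 65.4) in the upper group. Pfn1 supplied 58.7%, 40.1% and 22.1% of the summed Pfn1 and Ezr counts. Shroom3 supplied 95.2% (93.5 to 96.5), 96.4% (94.0 to 98.0) and 97.8% (96.9 to 98.5) of the counts of the Shroom pair, and the intervals of the cells with 0 and the upper group did not overlap.

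Since cells with more Aqp8 and Slc26a3 also held more other panel counts in total, shares of cells were compared after thinning each cell to 10 other panel counts. That left 508 of the cells with 0, 159 of the middle group and 395 of the upper group, with 11414, 976 and 255 shallower cells left out. After thinning, Ezr was found in 18.6%, 55.4% and 88.9% of cells (unthinned 5.31%, 30.2% and 80.6%). Shroom3 was found in 24.1%, 44.6% and 71.3% (unthinned 5.20%, 23.3% and 67.7%). Pfn1 was found in 31.4%, 46.0% and 51.0% (unthinned 7.17%, 24.8% and 56.5%). Pard3 was found in 5.47%, 5.57% and 3.06% (unthinned 1.20%, 2.82% and 3.85%), so that the order seen in its unthinned shares did not hold at equal depth.

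Within the 650 cells of the upper group, the members were set against which of the grouping genes dominated. In 145 cells at least 75% of these counts were Aqp8, in 84 cells at least 75% were Slc26a3, and 421 cells were mixed. Ezr was at 2416 (2204 to 2643) in the Aqp8 cells, 2358 (2246 to 2475) in the mixed cells and 1796 (1520 to 2108) in the Slc26a3 cells, a ratio of 1.34 between the ends (1.12 to 1.63). Shroom3 was at 1475, 1300 and 1090 in the same order, a ratio of 1.35 (1.07 to 1.73). Pfn1 was at 621, 663 and 707, with a ratio of 0.878 and an interval of 0.639 to 1.22 that includes 1. The Aqp8 cells had a median of 6 Aqp8+Slc26a3 counts, the mixed cells 8 and the Slc26a3 cells 4, and the part of this difference in the ratios was not tested.

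The crypt genes gave a second view of the epithelium. Cells with at least 2 Cftr+Kcnn4 counts and neither Aqp8 nor Slc26a3 numbered 54 in female region 1, with 476 other counts, and were set against 642 cells with 3 or more Aqp8+Slc26a3 counts and neither crypt gene, with 9649 counts. Ezr had 20 counts in the crypt-gene cells, a level of 420 (257 to 649), against 2320 (2225 to 2419), or 0.181 times (0.110 to 0.280). Shroom3 had 36 counts and a level of 756 (530 to 1047) against 1323 (1252 to 1398), or 0.571 times (0.398 to 0.795). Pfn1 was at 777 (547 to 1071) against 659 (609 to 712), a ratio of 1.18 (0.823 to 1.64). Pard3 went the other way, at 147 (59.1 to 303) from 7 counts against 26.9 (17.6 to 39.5), or 5.46 times (2.00 to 12.9). Shroom2 had 4 counts in these cells, and its ratio of 2.90 has an interval from 0.738 to 8.28. Of 30 panel genes with enough counts, 26.7% were at least 2-fold higher and 26.7% at least 2-fold lower in the crypt-gene cells. The median ratio of the 30 was 1.12. Of the 3 members among the 30 only Ezr passed that fold, on the lower side. The totals here include the members, and the scale without them was not computed for this comparison. The crypt-gene cells also held 1050 per 10000 of the fibroblast markers, from Fn1 and Vim with Pdgfra at 0, and 1 count of the 7 neuronal markers; the part of other cells' RNA in these values was not tested.

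Cells with at least 2 desmin counts, a muscle-type group, numbered 264 in female region 1 with 1941 other panel counts, and were set against 13443 cells with fewer. Ezr had 12 counts there and a level of 61.8 (31.9 to 108) against 842 (815 to 870), or 0.0734 times (0.0379 to 0.128), which is 13.6-fold lower. Shroom3 had 23 counts and a level of 118 (75.1 to 178) against 577, or 0.205 times (0.130 to 0.309). Pfn1 had 34 counts and a level of 175 (121 to 245) against 485, or 0.361 times (0.249 to 0.506). Pard3 had 14 counts and a level of 72.1 (39.4 to 121) against 45.2 (39 to 52.1), with an interval of the ratio of 0.856 to 2.74. Shroom2 and Pfn2 had 1 count each. Over the 90 genes with enough counts, 27.8% were at least 2-fold lower and 22.2% at least 2-fold higher in the desmin cells, with a median of 0.979. Of the 5 members among them 4 were at least 2-fold lower, 1 of which was Shroom2 with its single count, and 0 were at least 2-fold higher.

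The desmin cells held 15 Aqp8+Slc26a3 counts, 77.3 per 10000 against 1664 in the other cells. The fibroblast markers summed to 2123 per 10000 there against 1235, and the 7 neuronal markers to 211 against 55.8; their part in the ratios was not tested. With cells that met none of the groupings as the reference instead, the ratio was 0.140 for Ezr, 0.257 for Shroom3 and 0.303 for Pfn1, while that of Pard3 was 1.03. The low levels of the first 3 were thus seen also where cells with an Aqp8 or Slc26a3 count were left out of the reference. Many cells of the region are shallow, so absorptive cells without such a count may remain in that reference, and their part was not tested. Per cell, Pfn1 was at 129 counts per 1000 cells in the desmin cells and 153 in the others, a ratio of 0.840 with an interval of 0.580 to 1.18.

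Cells with at least 3 Fn1+Vim+Pdgfra counts, a fibroblast-type group, numbered 584 with 4344 other counts, against 13123 cells with fewer. Ezr had 168 counts there and a level of 387 (330 to 450) against 952 (920 to 984), or 0.406 times (0.346 to 0.474). Shroom3 had 124 counts and a level of 285 (237 to 340) against 654 (628 to 681), or 0.437 times (0.361 to 0.523). Pfn1, with 211 counts, was at 486 (422 to 556) against 524 (501 to 548), and the ratio of 0.927 had an interval of 0.800 to 1.07. Pard3, with 34 counts, was at 78.3 (54.2 to 109) against 47.9 (41.0 to 55.6), or 1.64 times (1.10 to 2.37). Of 88 genes, 11.4% were at least 2-fold lower and 27.3% at least 2-fold higher, with a median of 1.41; of the 5 members 2 were at least 2-fold lower and 0 at least 2-fold higher.

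These stromal values moved with the reference and the scale. The group held 235 Aqp8+Slc26a3 counts, 541 per 10000 against 1905 in the other cells, and 12 of its cells also had 3 or more of them. Desmin was at 898 per 10000 in the group and 318 in the other cells, and its part in the ratios was not tested. Per cell, Ezr was at 288 counts per 1000 cells in the group and 261 outside it, and Shroom3 at 212 and 179, so that both directions turned, with ratios of 1.10 (0.939 to 1.29) and 1.19 (0.982 to 1.42) whose intervals include 1. Pfn1 per cell was 2.52 times as high in the group (2.17 to 2.90) and Shroom2 1.73 times (0.616 to 3.93), where the median gene was 3.84 times higher. Against cells of none of the groupings, Ezr was at 0.776 times (0.651 to 0.920), Shroom3 at 0.549 times and Pfn1 at 0.745 times, whereas Pard3 stood at 0.988 times (0.651 to 1.47) and its difference was gone.

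**Figure D3:**
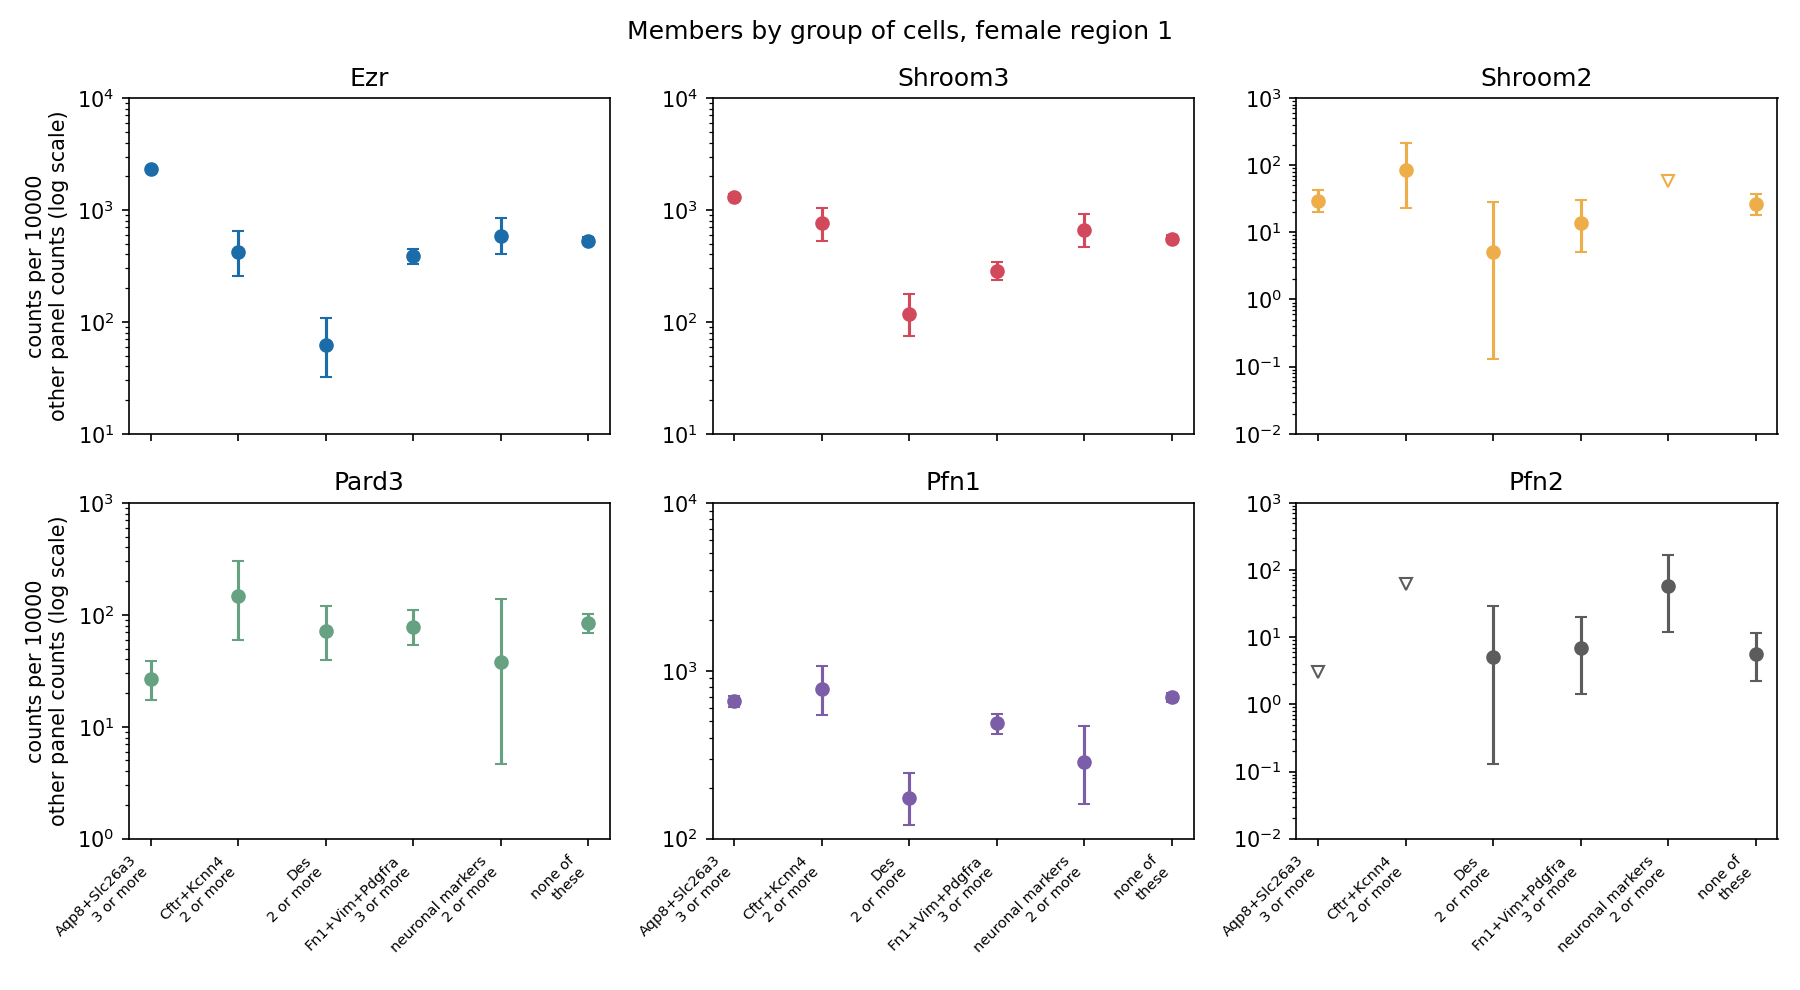
Level of each member in 6 groups of cells of female region 1, in counts per 10000 panel counts other than the genes that define the group (log axis), with exact Poisson 95% intervals; open triangles mark groups with 0 counts at the level that 3 counts would give. Ezr and Shroom3 are highest in the Aqp8+Slc26a3 cells, at 2322 and 1317, and lowest in the desmin cells, at 61.8 and 118.

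**Figure D4:**
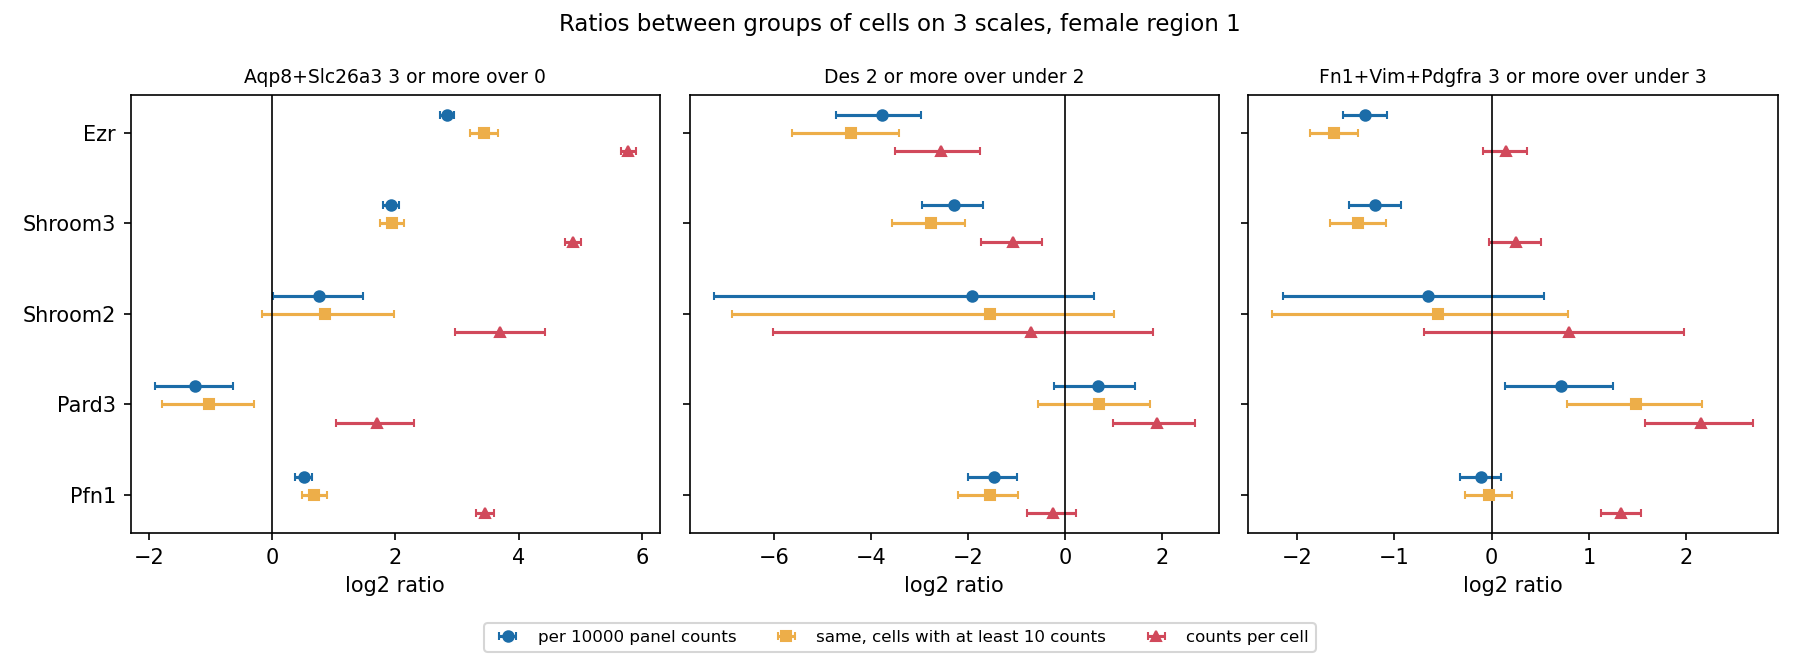
Log2 ratio of each of 5 members between groups of cells of female region 1 on 3 scales, per 10000 panel counts in all cells, the same in cells with at least 10 panel counts, and counts per cell; bars are exact 95% intervals. Ezr and Shroom3 lie right of 0 on every scale for Aqp8+Slc26a3 and left of 0 for desmin, while Pard3 changes side with the scale for Aqp8+Slc26a3 and Ezr, Shroom3, Shroom2 and Pfn1 do so for Fn1+Vim+Pdgfra.

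The 29 cells with neuronal markers held 31 Ezr, 35 Shroom3 and 15 Pfn1 counts, with 21 of the Shroom3 counts in 1 cell. Leaving these cells aside, the order of levels over these groups differed by member. For Ezr it ran from the Aqp8+Slc26a3 cells (2322) to the cells of none of the groupings (530), the crypt-gene cells (420) and the fibroblast-type cells (387) to the desmin cells (61.8); of the middle 3 neither the crypt-gene and fibroblast-type cells nor the crypt-gene cells and the cells of no grouping had separate intervals. For Shroom3 it ran from 1317 to 756 in the crypt-gene cells, 553 in the cells of no grouping, 285 in the fibroblast-type and 118 in the desmin cells, and only the crypt-gene cells and the cells of no grouping had overlapping intervals. For Pfn1 the crypt-gene cells (777), the cells of no grouping (693) and the Aqp8+Slc26a3 cells (658) overlapped, followed by the fibroblast-type cells (486), whose interval touched only that of the crypt-gene cells, and the desmin cells (175). For Pard3 the Aqp8+Slc26a3 cells were lowest at 26.4, and the crypt-gene cells (147), the cells of no grouping (84.3), the fibroblast-type (78.3) and the desmin cells (72.1) had overlapping intervals. The totals leave out different genes for different groups, which limits this order to large steps.

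Pfn2 was examined in cells with at least 2 counts of the 7 neuronal markers on the panel (Snap25, Tubb3, Elavl4, Stmn2, Syt1, Sncg and Chrna3). In male region 0 the 33 such cells held 20 of the 43 Pfn2 counts, a level of 288 (176 to 444) against 109 (69.0 to 163), or 2.64 times (1.38 to 5.03). A single cell with 116 panel counts held 15 of them, and without it the ratio was 0.787 (0.234 to 2.12), so that the difference rested on 1 cell. In male region 1 all 4 Pfn2 counts lay in 1 cell. In female region 1 the 29 such cells held 3 of 17 Pfn2 counts, a level of 57.1 (11.8 to 167) against 3.10 (1.70 to 5.20), or 18.4 times (3.39 to 66), with no cell above 1 count; the region's Pfn2 count of 17 is below its highest blank of 46. The only panel genes with a correlation of at least 0.2 with Pfn2 over cells there were Sncg (0.243), a neuronal synuclein, and Nrg3 (0.206), a neuregulin, resting on 3 and 1 cells with both genes.

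How the members went together within cells was described over the 1256 cells of female region 1 with at least 10 panel counts, as Pearson correlations of log2(1 + counts per 10000 panel counts). All points share 1 section, and the values depend on the depth of each cell. The panel genes most like Ezr were Aqp8 (0.576), Slc26a3 (0.546) and Prdx6, a peroxiredoxin (0.448), with Shroom3 next at 0.370. The genes most like Shroom3 were Aqp8 (0.375), Slc26a3 (0.373) and Ezr (0.370). Pfn1 came closest to Ezr, at 0.199, and no panel gene reached 0.2 with Pfn1, Shroom2 or Pard3.

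Ezr counts were concentrated in few cells. Cells with 6 or more Ezr counts numbered 134, held 36.2% of all Ezr counts of the region, and 99.3% of them had 3 or more Aqp8+Slc26a3 counts. Of the 854 cells with a single Ezr count 12.8% did, and of the 12207 with none 1.03%. The median panel count of these classes was 42, 6 and 0, so that the shares also carry the depth of the cells. The highest Ezr count in a cell was 22, that of Shroom3 was 21 and that of Pfn1 was 7. The cell with 21 Shroom3 counts was among the 29 with neuronal markers. Among the upper group, Shroom3 was found in 72.3% of the 524 cells with Ezr and 48.4% of the 126 without, and Pfn1 in 61.8% and 34.1%; the cells with Ezr also hold more counts, so that these shares are not corrected for depth.

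Outside female region 1 the groupings were nearly empty. Cells with 3 or more Aqp8+Slc26a3 counts numbered 0 in the male and 1 in female region 0, and 0 cells there or in the male reached 2 desmin or 3 Fn1+Vim+Pdgfra counts. In female region 0 the 6318 cells with 0 Aqp8+Slc26a3 counts held 30 of 31 Ezr, 52 of 54 Shroom3 and 52 of 54 Pfn1 counts. In these cells Ezr was at 80.4 (54.2 to 115) and both Shroom3 and Pfn1 were at 139 (104 to 183), and the 25 cells with 1 or more held 1, 2 and 2 counts of Ezr, Shroom3 and Pfn1. Ezr made up 36.6% of the summed Ezr and Shroom3 counts there (26.2 to 48.0), where cells with 0 in female region 1 had 48.5%.

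A test over animals was possible only with a wider split, 1 or more against 0. For Aqp8+Slc26a3 the sums were 344 counts in 30 male and 15937 in 1810 female cells with 1 or more. Ezr was at 58.1 per 10000 (2 counts) against 18.4 (6 counts) in the male and at 1774 against 292 in the female, with a fitted log2 difference of 2.26 ± 1.76 (SE) and an adjusted p of 0.752 by edgeR's quasi-likelihood test with the animal as a block. Both animals had the higher value in the cells with 1 or more, but 2 and 6 male counts are too few to give a direction. Shroom3 had an adjusted p of 0.901, Shroom2, Pard3 and Pfn2 had 0.793 and Pfn1 had 0.978. For Fn1+Vim+Pdgfra, with 261 counts in 46 male cells, all 6 members had an adjusted p of 0.980. The test called 1 of 104 genes (0.962%) and 1 of 103 genes (0.971%). Both calls were the mucin Muc6, no member, which was lower in the cells with 1 or more, with a log2 difference of -7.38 and an adjusted p of 0.027 by edgeR for Aqp8+Slc26a3, and -5.60 and 0.0093 for Fn1+Vim+Pdgfra. The female sums were 2 counts against 619 and 8 against 613, and the 4 male counts all lay in the cells with 0. Regions are pooled in these sums, and 610 of the female Muc6 counts came from region 0, where 25 cells had any Aqp8 or Slc26a3 count; the part of the regions in these calls was not tested. A p that misses the threshold does not show that the members' levels were alike. Desmin could not be tested, since the male cells with any desmin count numbered 3 and held 3 other counts.

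Of 85 other genes of apical domains, junctions and actin control listed beside the members, 2 are on the panel. Ctnnb1, which encodes the junction protein beta-catenin, had 39 and 20 counts in the male regions 0 and 1, and 57 and 1998 in the female ones. Prickle2, a gene of planar cell polarity, had 126, 24, 176 and 287. Both exceeded the highest blank in every region. In female region 1 Ctnnb1 was 1.77 times as high in cells with 3 or more Aqp8+Slc26a3 counts as in cells with 0 and 0.345 times as high in the desmin cells. Prickle2 stood at 0.364 and 2.37 times in the same comparisons. In the fibroblast-type cells Ctnnb1 was at 0.859 times and Prickle2 at 3.03 times its level in the other cells. The median gene was at 0.478, 0.979 and 1.41 times in the comparisons by Aqp8+Slc26a3, desmin and Fn1+Vim+Pdgfra, so that Prickle2 at 0.364, rank 52 of 85, lay near it in the first.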

How the data were processed

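Transcripts of 140 genes and 40 blank barcodes were counted per segmented cell in 4 regions (31893 cells) of 2 animals. The authors deposited raw counts, 1 table per region, whole numbers with no normalization; the submitters' processing notes name Seurat, and settings of decoding and segmentation were not given in the sources used. Doublets were not removed and mixing between neighbouring cells was not corrected. Levels are summed counts per 10000 panel counts, grouping genes left out, with exact 95% Poisson intervals (exact binomial for ratios and shares) that cover counting error only; counts clump in cells, so the error may be larger. Cells are not replicates. Sums per animal and cell group were tested with the edgeR quasi-likelihood test on genes with at least 50 counts, Benjamini-Hochberg at 0.05. In 20 simulations for each grouping, with 4-fold changes, the test recovered 33.8% of the changed genes for Aqp8+Slc26a3 and 49.8% for Fn1+Vim+Pdgfra. It called 1.26% and 2.09% of the unchanged genes. The spread of the simulated counts was set in advance, and both animals were given the same gene profile. The real sums differ between the animals, so these shares need not hold for them. The members and lists were chosen with earlier results of these data known. Besides the 6 members, genes were named as the 3 most correlated with each member at r of at least 0.2, and from the list of 85. Group-defining markers, Muc6 and genes just under that limit were named outside this rule. So were Slc12a8, Kcnq1 and Dmpk under the other observations, which were picked from their values. Alternatives covered scale, depth, thresholds, reference cells and models. All 140 symbols matched the reference table. Software was edgeR 4.0.16 and, as an alternative, DESeq2 1.42.0 under R 4.3.3, with scipy 1.17.1 under Python 3.11.15.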

Additional observations from a re-analysis of the deposited data

Results flagged for a closer look

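In the split of cells by any Aqp8 or Slc26a3 count against none, 2 members with at least 1 count in each sum had opposite directions in the animals, and the difference was not tested. Pfn1 had 0 male counts in the cells with 1 or more against 11 in those with 0, and a log2 ratio of 0.61 in the female; by Fn1+Vim+Pdgfra, Pard3 had 0 against 9 male counts and 0.28 in the female. Shroom3 had a log2 ratio of -0.34 in the male, from 1 and 12 counts, and 1.72 in the female, from 1667 and 861. Pfn2 had a log2 ratio of 3.30 in the male, from 24 and 23 counts, and -0.91 in the female, from 5 and 16. Of the 24 male Pfn2 counts, 15 lay in 1 cell of region 0 and 4 in 1 cell of region 1.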

How the results depend on the processing

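Values here are log2 ratios, and intervals that include 0 are not differences. In female region 1, Ezr and Shroom3 kept their direction by Aqp8+Slc26a3 and by desmin under every alternative run. The median of all genes shifts with the scale: by Aqp8+Slc26a3 it was -1.06 per 10000 counts, 1.88 per cell and -0.43 with the members left out of the total; by desmin -0.03, 1.19 and -0.28; by Fn1+Vim+Pdgfra 0.50, 1.94 and 0.33. On counts per cell by Aqp8+Slc26a3, Ezr was at 5.78, Shroom3 at 4.88, Shroom2 at 3.70, Pfn1 at 3.45 and Pard3 turned to 1.70; by desmin, Ezr was at -2.55, Shroom3 at -1.07, Pard3 at 1.89 and Pfn1 at -0.25; by Fn1+Vim+Pdgfra, Ezr turned to 0.14 and Shroom3 to 0.25, with Shroom2 at 0.79, Pard3 at 2.15 and Pfn1 at 1.33. In cells with at least 10 counts, Ezr was at 3.43 and Pfn1 at 0.68 by Aqp8+Slc26a3, and Ezr at -1.62 and Pard3 at 1.48 by Fn1+Vim+Pdgfra. With cells of none of the groupings as reference (chosen after seeing the data), Ezr was at 2.43, Shroom3 at 1.55 and Pfn1 at 0.23 by Aqp8+Slc26a3, Ezr at -2.84 by desmin, and Ezr at -0.37, Shroom3 at -0.87, Pfn1 at -0.42 and Pard3 turned to -0.018 by Fn1+Vim+Pdgfra. With the members left out of the total (also chosen later), Ezr was at 3.47, Shroom3 at 2.57, Pfn1 at 1.15 and Pard3 at -0.61. With 5 or more Fn1+Vim+Pdgfra counts, Ezr was at -2.12 and Shroom3 at -1.88, and without cells of several groups Pfn1 was at 0.13, with an interval that includes 0. Without the cell with most Pfn2 counts, the Pfn2 ratio by neuronal markers in male region 0 turned to -0.35. Between female regions 1 and 0, per cell, Ezr was at 5.74, Shroom3 at 4.41, Shroom2 at 1.47, Pard3 at 3.57, Pfn1 at 4.17 and Pfn2 at 0.98, and in cells with at least 10 counts Ezr was at 5.59, Shroom3 at 3.14 and Pfn1 at 5.34. Between female and male, per cell, Ezr was at 8.06, Shroom3 at 6.84, Shroom2 at 3.53, Pard3 at 3.81, Pfn1 at 6.85 and Pfn2 at -1.92, and in cells with at least 10 counts Shroom3 was at 5.08, Pard3 at 2.32 and Pfn2 at -6.15. That Pard3 value of 2.32 rests on 84 and 1 counts, and its interval as a fold, 0.870 to 199, includes 1. Between male regions 0 and 1, cells with at least 10 counts put Shroom3 at -3.36, from 2 and 1 counts, and Pfn2 at -1.27, from 34 and 4. As folds their intervals were 0.00508 to 5.76 and 0.148 to 1.61, and both include 1, so that neither is a difference. Scales per cell carry the depth of the cells; for the other settings the cause was not tested. Members above the blanks in male region 0 numbered 2 with the mean plus 3 SD in place of 1. In the tests over animals, the edgeR count of genes called, 1 in each grouping, went to 0 and 0 with no replicate block (4 and 1 genes at an unadjusted p under 0.05), to 0 and 2 with TMM factors, to 1 and 0 with DESeq2 and to 1 and 2 with no count filter, for Aqp8+Slc26a3 and Fn1+Vim+Pdgfra. The fit pairs groups of cells of the same animal, so its block is the animal; no member passed with the replicate block or without it. Leaving out an animal leaves 1 sum a side and a value with no test. Depth limits every value outside female region 1.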

Other observations

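Ezr was also found in cells of female region 1 with neither Aqp8 nor Slc26a3. Of the 11922 such cells, 109 held 2 or more Ezr counts and 11289 held none. Compared with the latter, the former had 4.49 times the level of Prdx6, a peroxiredoxin (interval 2.85 to 6.81, 27 counts), 2.29 times that of Slc12a8, a transporter listed among the crypt markers (1.48 to 3.41), 2.22 times that of Shroom3 (1.67 to 2.91) and 2.29 times that of Kcnq1, a potassium channel (1.15 to 4.15). Lower in the cells with Ezr were desmin, at 0.156 times (0.0714 to 0.298), the muscle kinase gene Dmpk, at 0.312 times (0.190 to 0.483), and Fn1, at 0.695 times (0.555 to 0.861). Of the other fibroblast markers, Vim was at 0.675 times (0.439 to 0.996), while Pdgfra was at 1.33 times, with an interval of 0.821 to 2.04 that includes 1. The part of muscle and stromal cells in these ratios was not tested. Apart from Vim and Pdgfra, these genes were chosen after their values were seen, from ratios whose intervals left out 1. All come from 1 section with no test.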
